A study of Danio rerio with 16 samples.

Results

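Muscle fibres are made when mononucleated myoblasts recognise each other, adhere and fuse, and in adult muscle those myoblasts come from satellite cells, the stem cells that lie between the fibre and its basal lamina. Fusion needs a pair of muscle membrane proteins, Mymk (Myomaker) and Mymx (Myomixer), and, in zebrafish, the adhesion receptors Jam2a and Jam3b. Satellite cells are held and activated through M-cadherin (Cdh15), N-cadherin (Cdh2), the scavenger-type receptor Megf10 and the hepatocyte growth factor receptor Met. Genes with the symbols mymk, mymx, jam2a, jam3b, cdh15, megf10, kirrel3l, cdh2 and met were followed here. The rows were matched by symbol and not by level, but the symbols were listed with earlier results of these data known. Of these 9 symbols, 8 matched 1 gene each among the 32520 genes of the table and all 8 passed the filter on low counts. No row carried the symbol jam3b; instead 2 IDs shared the symbol JAM3 (ENSDARG00000061794 and ENSDARG00000114589). Which of them is jam3b could not be told, so both were measured under their IDs and neither was counted among the 8.

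RNA was sequenced from the skeletal muscle of adult zebrafish, either wild type AB (Oregon) or ankrd1a-/- with the allele bns502, a single CRISPR/Cas9 line. Injury was a needle stab into the dorsal tail myotome, and the muscle next to it was dissected 5 days later; the non-injured controls of each genotype gave the matching piece of tail. There were 4 groups of 4 fish (non-injured and injured wild type, non-injured and injured mutants), 1 fish per library and no treatment common to all groups. The position of the bns502 lesion is not given in the labels. Estimated counts per library summed to 17324501 to 25231137. Levels are given as CPM (counts scaled to the library total) after TMM scaling, as mean ± SD over 4 fish, and they carry no correction for gene length, so they compare samples and not genes.

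Facts of the whole series that touch these genes are few. The symbol ANKRD1 was shared by 2 IDs, so ankrd1a itself could not be picked out, and with the lesion unplaced its RNA checks no label. ENSDARG00000075263 had means of 3.53, 166, 1.22 and 132 CPM in non-injured wild type, injured wild type, non-injured mutant and injured mutant fish, and ENSDARG00000076192 had 0.0411, 0.808, 0.0455 and 1.34 CPM. All 16 libraries carried the RNA of muscle fibres, with 20 fibre marker genes summing to 145377 to 291986 CPM. The pieces of tail also held other cell types. The summed CPM of 17 epidermis markers ranged from 242 to 2453 over the libraries, with overlapping ranges in all groups. Between non-injured and injured fish the sum of 17 fibroblast and tendon markers moved from 2716 to 3998 CPM up to 9074 to 12241 CPM in wild type and from 2543 to 3071 up to 7008 to 8672 in mutants. Their part in the results was not tested. In such tissue a higher or lower level can be more or fewer cells of a type, or more or less RNA per cell, and these cannot be told apart.

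Injury came with higher RNA of 6 of the 8 genes in wild type fish and of the same 6 in mutants: mymk, mymx, cdh15, cdh2, megf10 and met. None was lower. In each case the 4 injured fish lay above the 4 non-injured fish of their genotype, as they did for 11.8% of all genes tested in wild type and 16.3% in mutants. Over all 16514 genes tested, 23.8% were called in wild type (11.8% as higher) and 27.2% in mutants (14% as higher) (edgeR quasi-likelihood test, Benjamini-Hochberg adjusted p below 0.05, two-sided). The median log2 fold change of the 8 genes was 0.94 in wild type and 1.16 in mutants, against -0.03 and -0.02 over all genes tested. The other two of the 8, jam2a and kirrel3l, were not called after injury in either genotype. The count of 6 includes mymk, which passed the filter on low counts only through the injured fish.

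**Figure D1:**
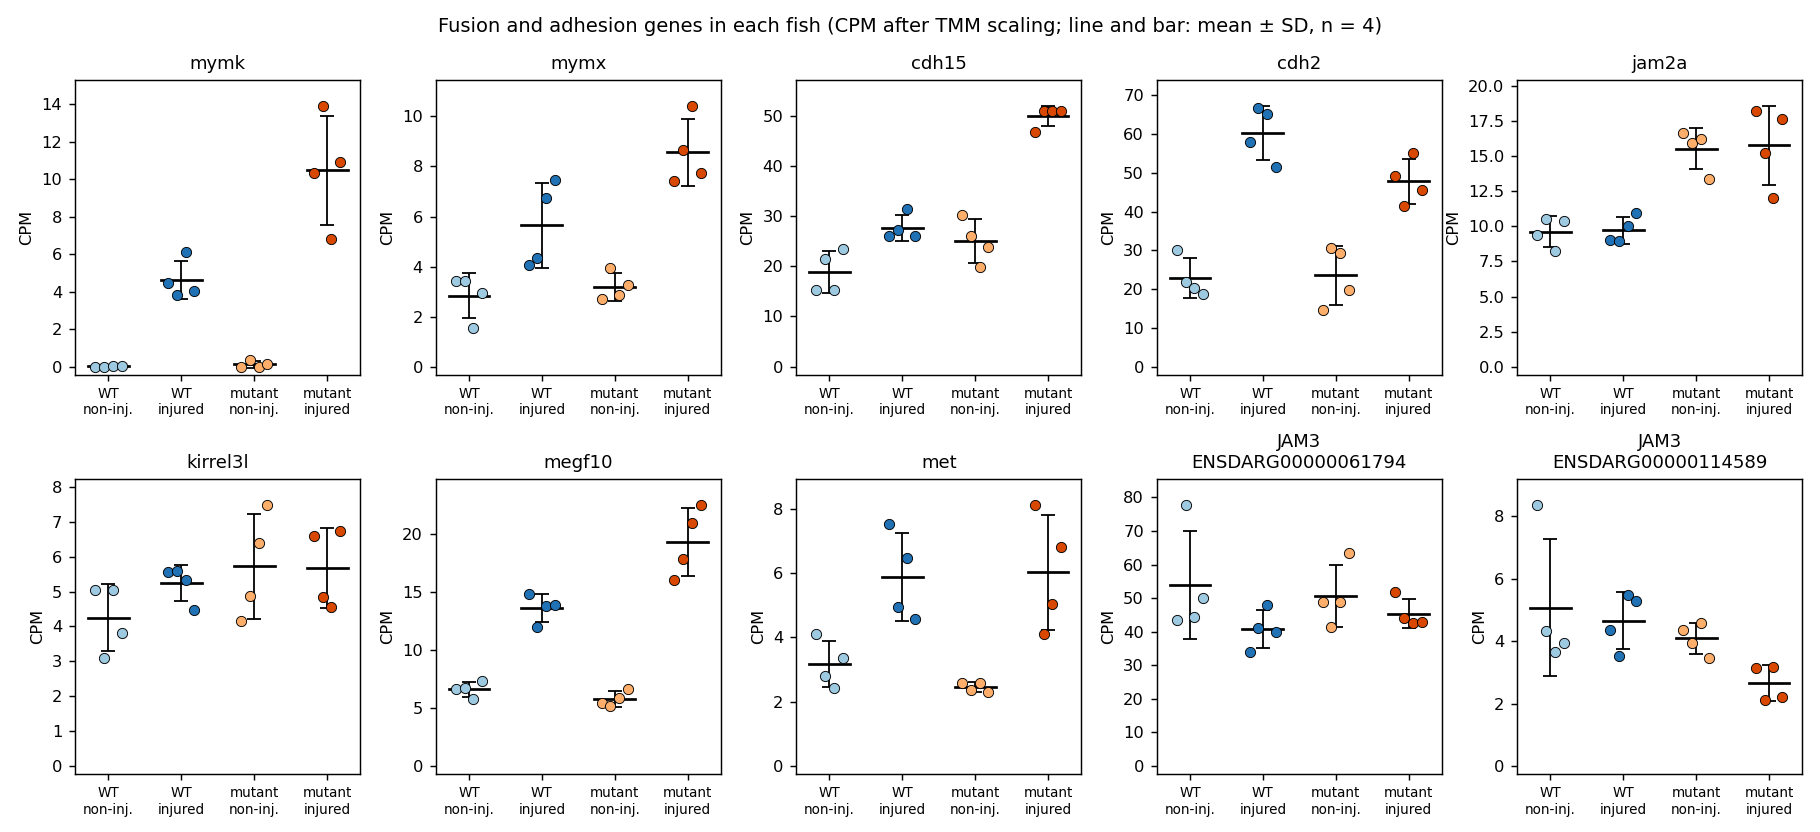
Level of each gene in every fish, in CPM after TMM scaling on a linear axis. Points are fish, and the line and bar are the mean and SD of 4 fish. The injured fish stand above the non-injured fish of their genotype for mymk, mymx, cdh15, cdh2, megf10 and met, while jam2a separates by genotype.

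The fusogen gene mymk (ENSDARG00000103988), whose membrane protein starts the merging of myoblast membranes, went from almost no reads to about 100 or more. In non-injured wild type fish its counts were 0, 0, 1 and 1, and in injured wild type fish they were 123, 107, 129 and 96. Non-injured mutants had counts of 0, 7, 0 and 2, and injured mutants 221, 302, 138 and 217. Every injured fish was thus far above every non-injured fish, and the non-injured level lay at the limit of what this depth can count. Expressed as CPM, the injured wild type fish had 4.47, 3.84, 6.10 and 4.06 and the injured mutants 10.3, 13.9, 6.82 and 10.9. Ratios of injured to non-injured counts were scaled to library size after TMM scaling, with exact 95% intervals for counting error only. The ratio was 169 in wild type (455 counts against 2, interval 46.7 to 1404). In mutants it was 84.2 (878 counts against 9; 44.1 to 185), and without the non-injured mutant replicate 2, an alternative chosen after seeing the data, it was 280.0 (878 counts against 2; 77.3 to 2316). The edgeR test called both rises, with adjusted p = 7e-06 in wild type and 2.9e-06 in mutants, which placed mymk 53rd and 39th of all genes by p. With at most 7 counts in any non-injured fish, mymk passed the filter on low counts only through the injured fish. Its call and its place by p are therefore no support separate from the counts above.

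The partner of mymk in fusion, mymx (ENSDARG00000099437), encodes a small membrane protein that completes the opening of the fusion pore. Unlike mymk it was present before injury, at 3.44, 3.41, 1.55 and 2.95 CPM in non-injured wild type fish. Injured wild type fish had 4.07, 4.34, 6.76 and 7.44 CPM, a rise of 0.99 on the log2 scale (SE 0.25, edgeR adjusted p = 0.01). Non-injured mutants had 2.69, 3.95, 2.85 and 3.26 CPM and injured mutants 7.42, 8.66, 10.4 and 7.73. The mutant rise was 1.42 on the log2 scale (SE 0.25, edgeR adjusted p = 9e-04). Injured and non-injured fish did not overlap in either genotype.

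Both cadherins rose. M-cadherin, cdh15 (ENSDARG00000068191), marks satellite cells and myoblasts and joins them to the fibre. It was at 15.2, 21.3, 15.3 and 23.5 CPM in non-injured wild type fish and at 25.96, 27.3, 31.5 and 26.1 CPM in injured ones. The wild type change was 0.55 on the log2 scale (SE 0.15, edgeR adjusted p = 0.017), the smallest of the 6. Leaving out the injured wild type replicate 3 took it to 0.48 with adjusted p = 0.053. Non-injured mutants had 30.3, 26.1, 19.9 and 23.9 CPM, and injured mutants 46.8, 50.9, 51.0 and 50.9. The 4 injured mutants lay close together, with an SD of 4.103% of their mean, and well above all other fish. Their change was 0.99 on the log2 scale (SE 0.15, edgeR adjusted p = 0.00035).

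N-cadherin, cdh2 (ENSDARG00000018693), is expressed by many mesenchymal and neural cells as well as by myoblasts. In non-injured wild type fish it was at 30.2, 21.9, 20.3 and 18.9 CPM and in injured wild type fish at 57.9, 66.7, 65.1 and 51.5. The change was 1.40 on the log2 scale (SE 0.21, edgeR adjusted p = 0.00037). Among mutants the non-injured fish had 14.6, 30.6, 29.3 and 19.9 CPM and the injured fish 49.1, 41.5, 55.2 and 45.7. Here the change was 1.02 on the log2 scale (SE 0.21, edgeR adjusted p = 0.0025). The fibroblast and tendon markers, genes of cells that can also carry N-cadherin, moved in the same comparisons. Of these 17 markers 13 rose in each genotype, beside 11.8% of all genes in wild type and 14% in mutants. The part of these markers in the cdh2 rise was not tested.

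The receptor genes megf10 and met rose in both genotypes as well. In mouse, Megf10 takes part in keeping satellite cells proliferating. In zebrafish wild type fish megf10 (ENSDARG00000017229) went from 6.64, 6.71, 5.73 and 7.35 CPM to 14.9, 11.9, 13.8 and 13.9, a log2 change of 1.04 (SE 0.13, edgeR adjusted p = 8.2e-05). Mutants went from 5.39, 5.18, 5.86 and 6.65 CPM to 16.01, 17.9, 21.0 and 22.5, a log2 change of 1.74 (SE 0.13, edgeR adjusted p = 6.8e-07), the 20th smallest p of all genes in that comparison. The spread within each group was small beside the gap, so the groups stood clear of one another. Met is the tyrosine kinase receptor through which Hgf brings satellite cells out of quiescence. For met (ENSDARG00000070903) the non-injured wild type fish had 4.09, 2.80, 2.43 and 3.36 CPM and the injured ones 7.52, 4.95, 6.47 and 4.57. Non-injured mutants were at 2.59, 2.35, 2.59 and 2.30 CPM and injured mutants at 8.12, 4.101, 5.04 and 6.83. The log2 changes were 0.89 in wild type (SE 0.23, edgeR adjusted p = 0.01) and 1.29 in mutants (SE 0.23, edgeR adjusted p = 0.00094), with no overlap between injured and non-injured fish in either. Macrophage markers, whose cells also enter injured muscle, moved alongside. Of 17 tested 8 rose in wild type and 15 in mutants, beside 11.8% and 14% of all genes. The macrophage marker sums were 174 to 370 CPM before and 345 to 603 CPM after injury in wild type. In mutants they were 167 to 236 and 422 to 606 CPM. Without the non-injured wild type replicate 3 the wild type count was 13 of the macrophage markers. Their part in the rise of the receptor genes was not tested.

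**Figure D2:**
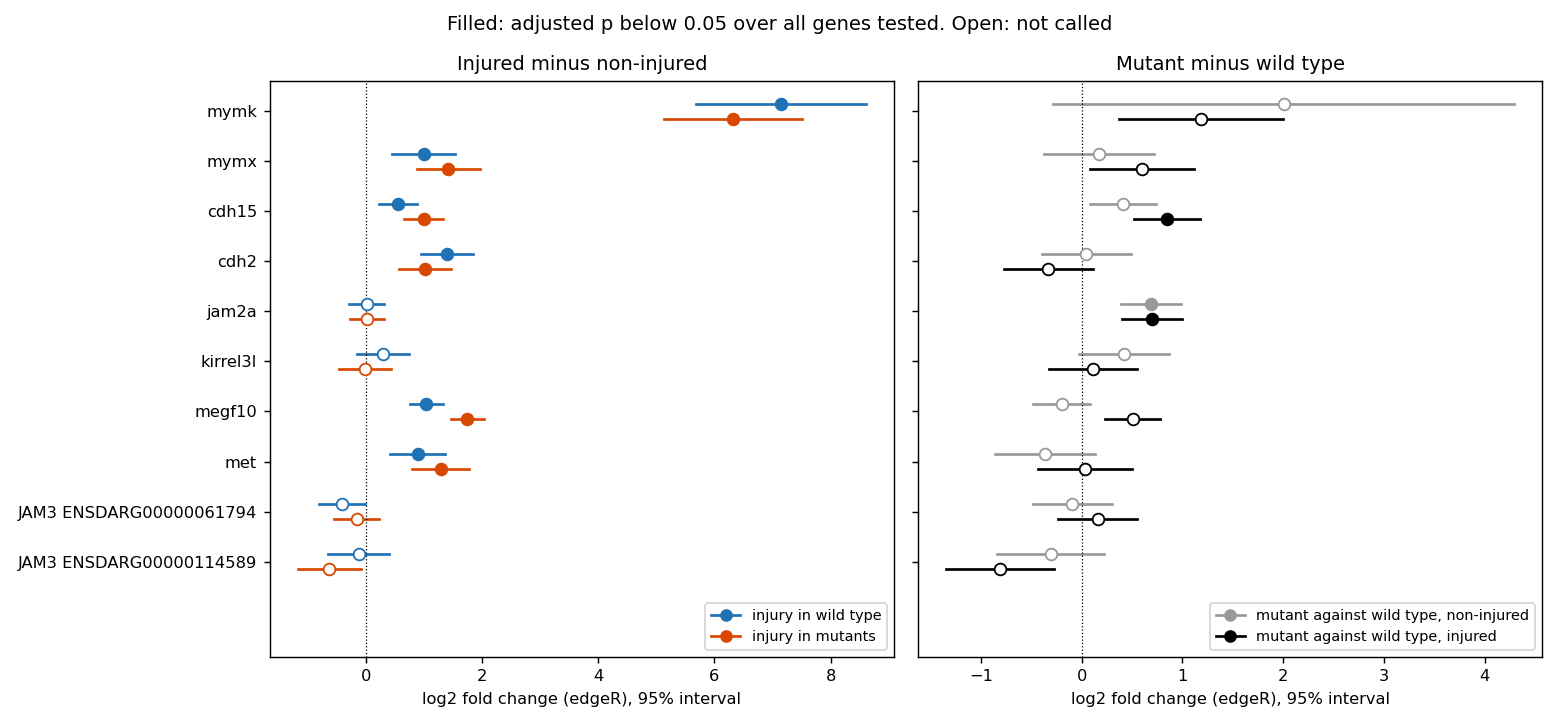
Log2 fold changes fitted by edgeR with 95% intervals for the 8 genes and the 2 JAM3 IDs, injured minus non-injured on the left and mutant minus wild type on the right. Filled points have an adjusted p below 0.05 over all genes tested. The fitted value of mymk rests on 2 and 9 non-injured counts, and jam2a is the one gene called in both genotype comparisons but in neither injury comparison.

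The receptor genes jam2a and kirrel3l and the 2 JAM3 genes, all of the immunoglobulin type, were not called after injury. In zebrafish Jam2a acts on one fusing fast myoblast as the partner of Jam3b on the other. The level of jam2a (ENSDARG00000058996) was 9.37, 10.5, 8.21 and 10.4 CPM in non-injured and 9.01, 8.93, 10.0 and 10.95 CPM in injured wild type fish. Mutants had 16.7, 15.9, 16.2 and 13.4 CPM without injury and 18.2, 15.3, 12.003 and 17.6 CPM with it. The 8 mutants thus lay above the 8 wild type fish whether injured or not, and injury moved neither genotype by an amount outside the spread. The injury change was 0.01 on the log2 scale in wild type (95% interval -0.28 to 0.31, edgeR adjusted p = 0.95) and 0.02 in mutants (-0.27 to 0.31, adjusted p = 0.93). The upper bound of both intervals lay below 0.55, the smallest estimate among the 6 genes that rose.

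Of the 2 JAM3 genes, ENSDARG00000061794 had 54.0 ± 16.1 CPM in non-injured and 40.7 ± 5.65 CPM in injured wild type fish, and 50.6 ± 9.33 and 45.4 ± 4.39 CPM in mutants. Its wild type difference of -0.41 on the log2 scale did not pass the test (SE 0.18, edgeR adjusted p = 0.12, unadjusted 0.043). A single fish, the non-injured wild type replicate 2 at 77.7 CPM, stood above the other three at 43.4, 44.5 and 50.2 CPM. The second gene, ENSDARG00000114589, was at 5.08 ± 2.21, 4.66 ± 0.907, 4.09 ± 0.502 and 2.65 ± 0.567 CPM in non-injured wild type, injured wild type, non-injured mutants and injured mutants. In injured mutants it lay below both the non-injured mutants (log2 difference -0.62, SE 0.25, edgeR adjusted p = 0.081) and the injured wild type fish (-0.81, SE 0.25, adjusted p = 0.13) without overlap, but neither difference passed the test. Without the non-injured wild type replicate 1, at 8.37 CPM, both passed, with edgeR adjusted p = 0.023 and 0.042. That fish is in neither comparison and acts on them only through the fit shared by all 4 groups. Adding the counts of the 2 JAM3 genes together, a step chosen after seeing the data, gave no call in any comparison.

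The nephrin-like receptor gene kirrel3l (ENSDARG00000104665), of the family that guides myoblast contact in the fly, was at 5.04, 3.11, 5.06 and 3.81 CPM in non-injured wild type fish and 5.56, 5.596, 5.34 and 4.48 CPM in injured ones. Mutants had 4.15, 4.86, 6.39 and 7.48 CPM without and 6.58, 4.84, 4.54 and 6.73 CPM with injury. All 4 groups overlapped. The injury change was 0.30 on the log2 scale in wild type (95% interval -0.14 to 0.75, edgeR adjusted p = 0.32) and -0.01 in mutants (-0.45 to 0.43, adjusted p = 0.98).

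Mutant and wild type fish were then compared within each state. Among non-injured fish 1 of the 8 genes was called, jam2a, against 2.83% of all genes tested (1.38% higher in mutants). Among injured fish 2 were called, jam2a and cdh15, against 1.48% of all genes (0.83% higher in mutants). Both were higher in mutants. The jam2a values of the genotypes did not overlap in either state; among non-injured fish 4.83% of all genes had mutants above wild type in this way. The non-injured difference of jam2a was 0.69 on the log2 scale (1.61-fold, SE 0.14, edgeR adjusted p = 0.017) and the injured difference 0.70 (1.62-fold, SE 0.14, adjusted p = 0.019). Neither call was secure against single libraries: the non-injured one was lost without replicate 3 of either genotype (adjusted p = 0.05 and 0.055), and the injured one without injured wild type replicates 1, 2 or 3 or injured mutant replicates 1 or 4 (0.051 to 0.07), while the difference itself stayed between 0.62 and 0.92 under all alternatives in both states. The non-injured call was also lost in a fit to non-injured fish alone (0.68, edgeR adjusted p = 0.056) and with the epidermis marker level as a covariate (0.67, adjusted p = 0.067). The epidermis markers summed to 485 to 2453 CPM in non-injured wild type fish and 242 to 985 CPM in non-injured mutants, with a median log2 difference of -1.75 and none of 17 called. The interaction, which is the difference between the injured and the non-injured value, was 0.01 (95% interval -0.41 to 0.42, edgeR adjusted p = 1).

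For cdh15 the 4 injured mutants, at 46.8 to 51.0 CPM, did not overlap the 4 injured wild type fish, at 25.96 to 31.5 CPM. The difference was 0.85 on the log2 scale (1.80-fold, SE 0.15, edgeR adjusted p = 0.011), and cdh15 ranked 72nd of all genes by p. It passed in every alternative run, with adjusted p between 1.8e-05 and 0.042. In non-injured fish the difference was 0.41 (SE 0.15), with unadjusted p = 0.018 and edgeR adjusted p = 0.16, and the groups overlapped.

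Also higher in injured mutants than in all injured wild type fish, but not called, were mymk and megf10. The injured means of mymk were 4.62 ± 1.02 CPM in wild type and 10.5 ± 2.91 CPM in mutants, a log2 difference of 1.19 (SE 0.38, 95% interval 0.37 to 1.997, edgeR adjusted p = 0.14). It passed with DESeq2 (adjusted p = 0.0062), with limma-voom (0.0092) and with edgeR fitted to injured fish alone (0.028). For megf10 the means were 13.6 ± 1.21 and 19.3 ± 2.94 CPM, a log2 difference of 0.51 (SE 0.13, 95% interval 0.23 to 0.78, edgeR adjusted p = 0.063). This one passed with DESeq2 (adjusted p = 0.011) and with edgeR without the injured mutant replicate 1 (0.047). With jam2a and cdh15, 4 of the 8 genes thus had injured mutants above injured wild type fish without overlap, a pattern shown by 5.92% of all genes tested. The injured mymx levels of 5.65 ± 1.70 and 8.56 ± 1.35 CPM touched at 7.44 and 7.42 CPM, and the difference of 0.60 did not pass (SE 0.24, edgeR adjusted p = 0.26).

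The remaining receptors showed no such order. The injured levels of met were 5.88 ± 1.37 CPM in wild type and 6.02 ± 1.80 CPM in mutants (log2 difference 0.04, 95% interval -0.43 to 0.50, edgeR adjusted p = 0.96). Those of kirrel3l were 5.24 ± 0.520 and 5.67 ± 1.14 CPM (log2 difference 0.11, 95% interval -0.33 to 0.55, edgeR adjusted p = 0.85). For cdh2 the injured means were 60.3 ± 7.0002 CPM in wild type and 47.9 ± 5.82 CPM in mutants (log2 difference -0.33, 95% interval -0.77 to 0.11, edgeR adjusted p = 0.49). That cdh2 difference was not called and the groups overlapped. The summed fibroblast and tendon markers were at 7008 to 8672 CPM in injured mutants and 9074 to 12241 CPM in injured wild type fish. Of these 17 genes 2 were called lower, and 1 without any one of 6 of the 8 injured libraries. Of all 16514 genes tested 107 were called lower. The part of these markers in the cdh2 values was not tested.

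Whether the injury response itself differed between genotypes was tested as an interaction. None of the 8 genes was called by edgeR, DESeq2 or limma-voom, 1 had an unadjusted p below 0.05, and of all genes 0.0606% were called. That 1 gene was megf10, whose rise was larger in mutants by 0.70 on the log2 scale (SE 0.19, 95% interval 0.31 to 1.096, unadjusted p = 0.0016, edgeR adjusted p = 0.35). The interaction of cdh15 was 0.44 (SE 0.22, unadjusted p = 0.06, edgeR adjusted p = 0.7). That of mymk, -0.82 (SE 1.04, edgeR adjusted p = 0.94), rested on the few non-injured reads and became 0.76 without the non-injured mutant replicate 2, which held 7 of the 9 counts of its group.

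A comparison that needs no scaling between libraries is the ratio of 2 genes within a fish. It was formed for all 28 pairs of the 8 genes, after their values had been seen. The count of cdh2 over that of cdh15 was 2.23, 2.45, 2.07 and 1.97 in injured wild type fish and 1.05, 0.815, 1.08 and 0.897 in injured mutants. Without injury the ratios were 1.98, 1.03, 1.33 and 0.803 in wild type and 0.480, 1.17, 1.47 and 0.832 in mutants. The injured genotypes were separate and the non-injured ones overlapped. The injured difference in log2 of cdh15 over cdh2 was 1.18 (exact two-sided permutation test p = 0.029, the smallest that 4 against 4 allows; 0.081 adjusted over the 28 pairs), and the non-injured one 0.41 (exact permutation p = 0.43, adjusted 0.69). With 10 of the 28 pairs at that smallest p after injury, this 0.081 was also the lowest adjusted value. It was computed from the p rounded to 0.029, so it lies slightly above the exact one. The injured cdh15 levels had already separated the genotypes on their own, so the ratio is no separate support for a shift between the cadherins. These are ratios of counts and say nothing of which cadherin was more abundant per length.

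**Figure D3:**
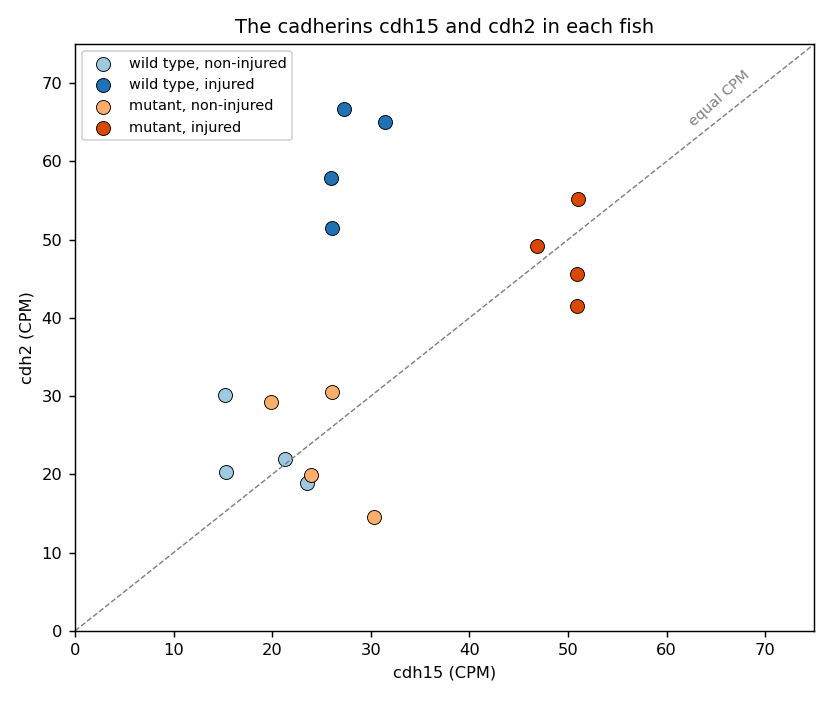
Levels of cdh15 (horizontal axis) and cdh2 (vertical axis) in each of the 16 fish, in CPM on linear axes with no correction for gene length. The dashed line marks equal CPM. Injured wild type fish lie above it, with cdh15 at 25.96 to 31.5 CPM, and injured mutants lie around it, with cdh15 at 46.8 to 51.0 CPM.

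Other genes of fusion, adhesion and satellite cells were read from 7 lists (128 IDs, 114 tested). After injury 29 rose and 6 fell in wild type fish, 30.7% of those tested against the 23.8% of all genes, and 28 rose and 9 fell in mutants, 32.5% against 27.2%. The genes that rose made up 25.4% and 24.6% of those tested, against 11.8% and 14% of all genes; the lists were chosen with results of these data known, and no test was made of this difference. Scaling by library size alone, which moves the median gene by 0.34 in wild type and 0.26 in mutants, gave 44 higher and 1 lower in wild type and 43 higher and 1 lower in mutants. That scaling called 3673 and 3108 of all genes higher, against 1956 and 2306 in the main fit, so the rise in calls was not particular to the lists. With the epidermis marker level as a covariate, the mutant total was 19, against 37 in the main fit. The same covariate took the count over all genes in that comparison from 4496 to 2896.

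The list with the highest share of risers was that of the immunoglobulin receptors. Of 11 tested 7 rose in wild type and 6 in mutants, and none fell, beside 11.8% and 14% of all genes that rose. The Hedgehog co-receptor gene BOC, a promoter of myoblast differentiation in mouse, rose by 0.89 on the log2 scale in wild type and 1.09 in mutants (edgeR adjusted p = 0.00043 and 6.3e-05). The neural cell adhesion gene NCAM1 with ID ENSDARG00000056181, whose protein marks activated myogenic cells, rose by 1.48 and 2.02 (adjusted p = 0.00058 and 4.3e-05). The other NCAM1 ID, ENSDARG00000007220, was not called (0.40 and -0.03, edgeR adjusted p = 0.28 and 0.95). Both NCAM1 IDs are also on the list of nerve and Schwann cell markers. The netrin receptor gene NEO1 with ID ENSDARG00000075100 rose by 1.18 and 1.11 (0.0049 and 0.0064). The adhesion ligand gene vcam1b was called in wild type (0.93, adjusted p = 0.00094) and had 0.30 in mutants (0.18). The 2 KIRREL1 genes, relatives of kirrel3l, rose in both genotypes, ENSDARG00000001634 by 0.47 and 0.62 (adjusted p = 0.0063 and 0.00095) and ENSDARG00000056998 by 1.39 and 2.26 (0.024 and 0.0017).

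Among 10 cadherins and catenins tested, 3 rose and 1 fell in wild type and 4 rose and 1 fell in mutants. Of all genes 23.8% and 27.2% were called either way. Of the catenins, CTNNB1 (beta-catenin) changed by 0.77 and 0.76 on the log2 scale (edgeR adjusted p = 0.0011 and 0.00092) and ctnna1 by 0.55 and 0.66 (0.032 and 0.011). The other catenin genes tested were called in neither genotype. They were CTNNA2 (0.11 and 0.35), CTNND1 (0.06 and 0.13), JUP ENSDARG00000059067 (-0.30 and -0.03) and JUP ENSDARG00000070787 (-0.15 and 0.41). CDH11, a cadherin of mesenchymal cells, rose by 1.07 and 0.97 (0.0029 and 0.0045). The one that fell in each genotype was the endothelial cadherin cdh5, by 0.59 and 0.52 on the log2 scale (0.019 and 0.032). Of the 15 other endothelial markers 7 fell in each genotype. Of all 16514 genes tested 1971 fell in wild type and 2190 in mutants. The sums of these 15 markers went from 345 to 419.99 CPM to 225 to 285 CPM in wild type and from 320 to 365 CPM to 200.4 to 259 CPM in mutants. With cdh5 counted, the 8 called in wild type were 3 to 9 with 1 library left out (moved over 1.5 times by non-injured replicate 1 and injured replicates 1, 2 and 3), and the 8 called in mutants were 5 without non-injured replicate 3. Scaling by library size alone left 2 called in each genotype. Their part in the cdh5 change was not tested.

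Of 22 actin and Rac effectors tested, which drive the invasive protrusions of fusion, 5 rose and 2 fell in wild type, and 2 rose and 2 fell in mutants. Among all genes 23.8% and 27.2% were called, a lower share than this list's in wild type and a higher one in mutants. The pair that fell was the same: ARF6, a small GTPase of membrane traffic, changed by -1.07 in both genotypes (edgeR adjusted p = 0.00031 and 0.00025), and the adaptor gene CRKL by -0.56 and -0.46 (0.0018 and 0.005). The exchange factor gene TRIO rose by 0.50 and 0.35 and WASF2, of the WAVE complex, by 0.52 and 0.61 (adjusted p = 0.0041, 0.026, 0.008 and 0.0024). Of 14 membrane and phosphatidylserine proteins 4 rose and none fell in each genotype. Of all genes 11.8% and 14% rose, and 23.8% and 27.2% were called either way, which is near this list's share. MYOF with ID ENSDARG00000006112, a myoferlin gene whose mouse counterpart is needed for large myotubes, rose by 0.86 and 0.98 (adjusted p = 0.047 and 0.025). The tetraspanin gene CD81 with ID ENSDARG00000036080 rose by 0.55 and 0.45 (0.012 and 0.027). The other CD81 ID, ENSDARG00000022437, was not called (-0.52 and -0.12, edgeR adjusted p = 0.15 and 0.77). GULP1 with ID ENSDARG00000001733 and ADGRB3, both of phosphatidylserine recognition, were called in wild type (0.87 and 1.43, adjusted p = 0.00083 and 0.02) and had 0.22 and 0.99 in mutants (0.29 and 0.076). The other GULP1 ID, ENSDARG00000057833, was not called (-0.73 and -0.70, edgeR adjusted p = 0.1 and 0.11). In mutants stab2 and MYOF with ID ENSDARG00000017128 were called (1.40 and 1.39, adjusted p = 0.0012 and 0.016), with 0.54 and 1.06 in wild type (0.13 and 0.052).

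On the Hgf-Met side, 4 of 17 tested rose in wild type, and 5 rose and 1 fell in mutants. Of all genes 23.8% were called either way in wild type and 27.2% in mutants, and 11.8% and 14% were called higher. The wild type share called either way was near that of all genes, but all 4 of these calls were rises. The list was not tested against these shares. The ligand gene hgfa rose by 1.19 and 0.94 on the log2 scale (edgeR adjusted p = 0.012 and 0.034). The gene named HGF with ID ENSDARG00000079076 rose in mutants by 1.59 (0.013) and had 0.95 in wild type (0.12). The gene mst1ra, encoding a receptor related to Met, rose in mutants by 1.86 (0.014) and had 0.71 in wild type (0.3). Mutant minus wild type, mst1ra differed by -1.28 without injury and -0.13 with it (edgeR adjusted p = 0.19 and 0.93). The epidermis markers had medians of -1.75 and -0.19 in the same 2 comparisons. Their part in the mst1ra values was not tested. The ubiquitin ligase gene CBL, which turns Met signalling down, rose by 0.59 and 0.60 (0.026 and 0.021). Adaptors downstream of the receptor were called as well: GRB2 with ID ENSDARG00000105276 (1.54, 0.012) and grb2b (0.37, 0.029) in wild type, with -0.03 and 0.02 in mutants (0.96 and 0.9), and SHC1 (0.29, 0.028) in mutants, with 0.12 in wild type (0.39).

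Of 24 Megf10 partners and niche genes tested, 3 rose and 1 fell in wild type, and 4 rose and 3 fell in mutants. The wild type share lay below the 23.8% called among all genes, and the mutant share was near the 27.2%. The integrin gene ITGB1 with ID ENSDARG00000104484 rose by 0.57 and 0.73 (edgeR adjusted p = 0.00064 and 6.5e-05) and notch2 by 0.44 and 0.56 (0.0093 and 0.0019). The Megf10 relative MEGF6 with ID ENSDARG00000079199 rose by 0.79 and 1.44 (0.037 and 0.0013), and the Notch ligand gene dll4 fell by 0.58 and 0.71 on the log2 scale (0.043 and 0.015). Of 16 myogenic regulators 3 rose and 2 fell in each genotype, beside 23.8% and 27.2% of all genes called either way. MYOG, the transcription factor gene of differentiating myoblasts, was at 6.53 ± 0.737 and 27.2 ± 5.91 CPM in non-injured and injured wild type fish and at 9.79 ± 2.54 and 39.9 ± 9.47 CPM in mutants (log2 changes 2.06 and 2.03, adjusted p = 1.4e-05 and 1.2e-05). The satellite cell gene PAX7 with ID ENSDARG00000070818 rose by 0.97 and 1.03 (0.028 and 0.017). MYF5 was called in wild type (0.87, 0.0018) and had 0.18 in mutants (0.44), and PAX7 with ID ENSDARG00000100398 was called in mutants (1.08, 0.033) and had 0.31 in wild type (0.55). The transcription factor gene six4a was lower in both (-0.85 and -0.73, adjusted p = 0.0094 and 0.02).

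**Figure D4:**
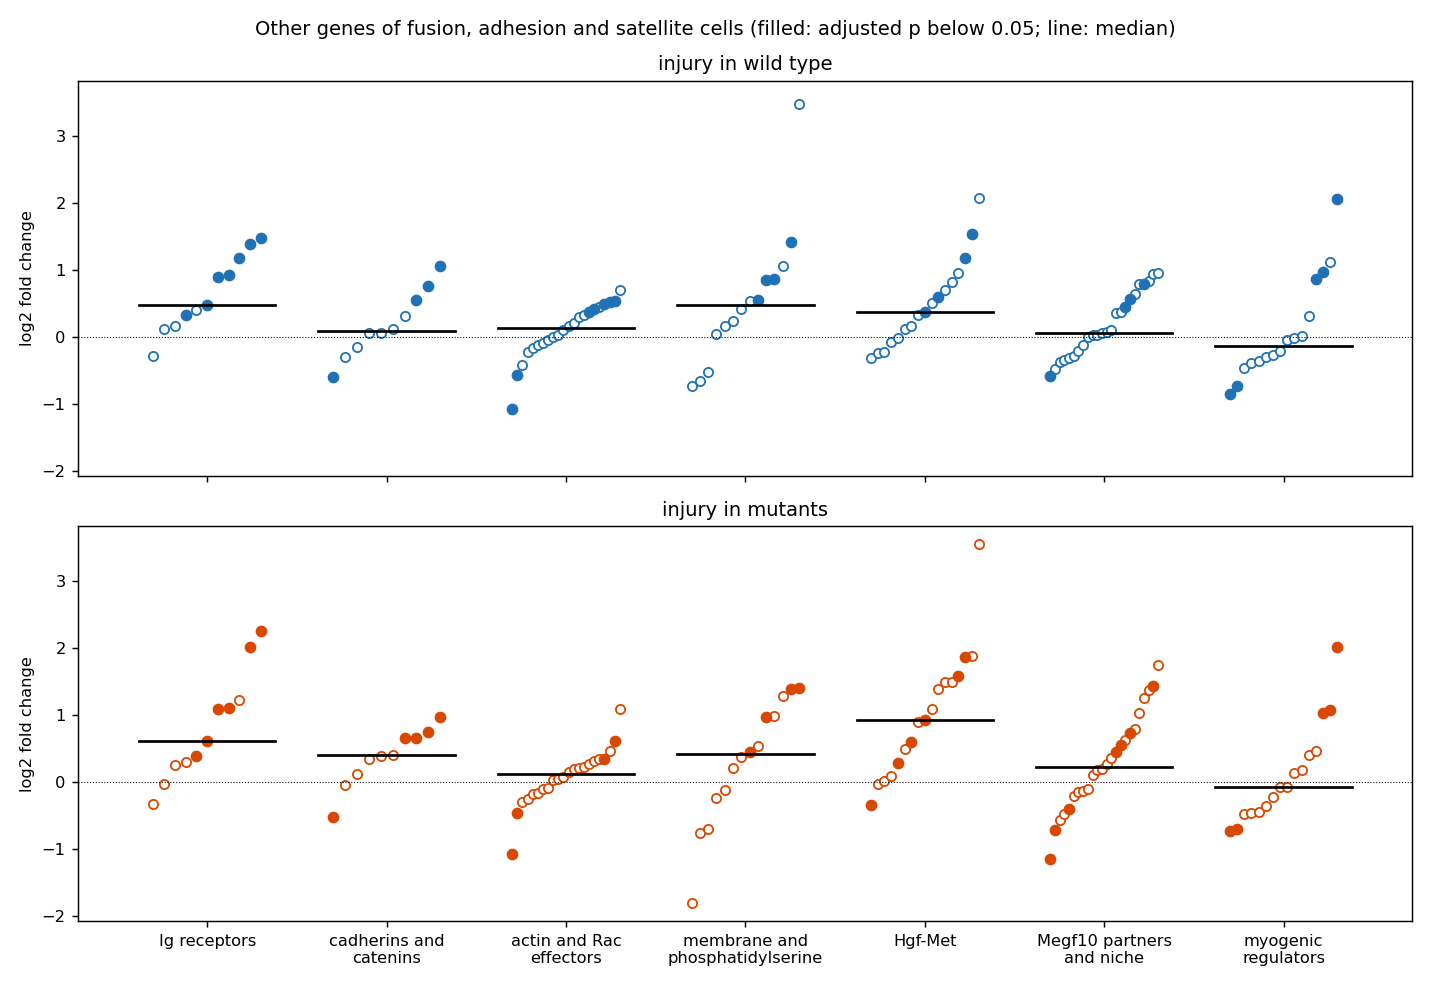
Log2 fold change after injury (vertical axis, edgeR) of each tested gene of 7 lists, wild type above and mutants below. Filled points have an adjusted p below 0.05 over all genes tested, and the line is the list's median. Of the immunoglobulin receptors 7 and 6 of 11 are filled, all above 0, and the single highest filled myogenic regulator is MYOG at 2.06 and 2.03.

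The counts per list were small and some turned on single fish. Without injured wild type replicate 1 or 2 the cadherins and catenins called in wild type were 2, and 3 in mutants without non-injured mutant replicate 3 or injured mutant replicate 2. The membrane proteins numbered 2 in wild type at the lowest (non-injured replicate 2, injured replicates 1 and 2 each moved the count by over 1.5 times) and 1 in mutants (non-injured replicates 1 and 3, injured replicate 1). Counts of the Hgf-Met list were 2 to 6 in wild type (non-injured replicate 1, injured replicate 1) and 2 to 7 in mutants (injured replicate 1). Those of the Megf10 and niche list were 2 to 4 in wild type (non-injured replicates 2 and 4, injured replicates 2 and 3) and 4 to 8 in mutants (non-injured replicate 4). The mutant myogenic regulators were 3 without non-injured replicate 3 or injured replicate 2.

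Between genotypes, 6 of the 114 genes were called in non-injured fish (5.26%) and 2 in injured fish (1.75%), beside 2.83% and 1.48% of all genes. The non-injured count was 2 at the lowest, and it moved by over 1.5 times without the non-injured wild type replicates 1 or 3. DESeq2 called 15 and 5 of the list genes, but it also called more over all genes, 1110 and 710 against 467 and 244 by edgeR. ELMO2, a Rac activator of engulfment and of myoblast fusion, was lower in mutants in both states, at 0.921 ± 0.352 against 2.49 ± 0.156 CPM without injury (log2 difference -1.43, edgeR adjusted p = 0.013) and 0.813 ± 0.200 against 2.49 ± 0.408 CPM with it (-1.60, 0.007). ITGB1 with ID ENSDARG00000071863, which shares its symbol with the gene that rose after injury, was at 57.9 ± 9.86 CPM in injured mutants and 126 ± 9.75 CPM in injured wild type fish (-1.12, 0.0064). Reads that fit both ITGB1 genes may have been divided between them, so each value alone is uncertain. In non-injured fish the mutants were also higher in MYF5 (0.81, 0.019) and GIT2 with ID ENSDARG00000061915 (0.81, 0.025) and lower in CD81 with ID ENSDARG00000022437 (-1.06, 0.042). NOTCH1 with ID ENSDARG00000052094 was higher in them too (0.48, 0.034). ADGRB1 with ID ENSDARG00000078529, a receptor gene of phosphatidylserine recognition, was called higher (edgeR adjusted p = 0.022), at 2.30 to 9.47 CPM in non-injured mutants against 0 to 0.183 CPM in non-injured wild type fish. No gene of the 7 lists had a called interaction in edgeR, DESeq2 or limma-voom; 9 had an unadjusted p below 0.05.

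For each gene the 3 most similar profiles over the 16 libraries were found among 11945 genes by Pearson's r of log2 CPM. The r is a description: all libraries share the 4 groups, so any gene that follows them scores high. A second r, over deviations from the group means, shows how much likeness stays among fish of one group. The profiles were picked from 11945 genes by the first r, which holds these deviations too, so a high second r is no separate support. Closest to mymk were YES1 (0.983, and 0.703 within groups), MARCKS (0.979 and 0.586) and myhz2 (0.978 and 0.337). The last, a fast myosin heavy chain gene, averaged 120 and 3202 CPM in non-injured and injured wild type fish and 98.4 and 6987 CPM in mutants. It was also among the closest to megf10 (0.969), after myhz1.1 (0.971) and before TRIM8, but within groups those 2 myosin genes reached only 0.110 and 0.126. Reads of near-identical myosin genes may have been divided between copies.

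The profile most like mymx was that of MMP15 (0.939, and 0.760 within groups), followed by obsl1a (0.936 and 0.749) and FZD7 (0.929 and 0.790). For cdh15 they were TCIM (0.912), KIRREL1 with ID ENSDARG00000001634 (0.911) and asgr1c.1 (0.907), with within-group values of 0.389, 0.405 and 0.253. For cdh2, mymx, kirrel3l and JAM3 ENSDARG00000061794 all 3 within-group values were at least 0.720, and those of met, at 0.641 to 0.736, were little lower. For cdh2, CRABP2 gave 0.978 and 0.867, sertad4 0.965 and 0.780, and PPIB 0.960 and 0.720. The genes closest to met were TGFBR2 (0.928 and 0.736), RRAS (0.922 and 0.641) and CHST11 (0.920 and 0.707). Those of jam2a were NUP35 (0.905 and 0.550), MYL9 with ID ENSDARG00000008030 (0.893 and 0.276) and WDR82 (0.883 and 0.567). They had the same order by genotype: MYL9 averaged 68.7 and 74.0 CPM in wild type and 182 and 223 CPM in mutants. The most similar to kirrel3l reached 0.807 (BOP1), 0.807 (METTL2B) and 0.805 (POLR2H), with 0.774, 0.781 and 0.767 within groups. Of the JAM3 genes, ENSDARG00000061794 was nearest to TSPAN12 (0.896 and 0.865), arl9 (0.867 and 0.871) and entpd5b (0.852 and 0.806). ENSDARG00000114589 was nearest to ARHGEF19 (0.825 and 0.578), znf219 (0.822 and 0.577) and NT5E (0.819 and 0.756).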

How the data were processed

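The authors deposited a table of RSEM estimated counts for 32520 genes in 16 libraries. The library kit enriches poly A RNA and keeps strand, per the labels' protocols. Per the submitters' processing notes, fastp 0.23.4, STAR 2.7.0, STAR 2.7.10 and RSEM 1.3.3 were used. No build, annotation or strand option is given in the sources used here. RSEM divides reads that fit several genes, and 94.29% of all deposited estimated counts were whole numbers; the 160 values of the 8 genes and the 2 JAM3 IDs all were. Values were rounded. All columns matched a sample by its description (0 left over). IDs were named through a table that held symbols for 29201 genes, and no coordinates or sequences were used here.

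With edgeR 4.0.16 (R 4.3.3), genes passing filterByExpr (minimum count 10, minimum total count 15; 16514 kept) were TMM-scaled and fitted in 1 robust quasi-likelihood model with a mean per group. Contrasts were tested two-sided, with Benjamini-Hochberg adjustment over all genes and a threshold of 0.05. Libraries held 17324501 to 25231137 counts; intervals on counts are exact, at 95%, and cover counting error only. Log2 CPM used a prior count of 2, and 0.5 was added to counts before the log2 ratio of 2 genes. DESeq2 1.42.0, limma-voom (limma 3.58.1), other scalings, no filter, groups compared alone, a replicate block, an epidermis covariate and single libraries left out were alternatives. The script was tested on simulated data.

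The 8 genes and the 13 other lists (209 of 218 symbols matched) were chosen with earlier results of these data known. Named were all matched rows, up to 4 called genes per list and comparison by p, and the 3 most similar profiles. One gene that this rule names is not reported here. Same-numbered fish did not deviate together: 8 of 24 pairs had r over 0.1 (median 0.04), so the numbers were not taken as pairs.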

Additional observations from a re-analysis of the deposited data

Results flagged for a closer look

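In 3 of the 40 gene and group combinations tested, 1 fish stood apart from the other three, with a gap of over 0.829 of the group's range; chance flags about 1 in 20. The lowest of the 4 injured mutants for cdh15 had 46.8 CPM, beside 50.9 to 51.0 CPM in the others (gap 0.9753 of the range). The highest injured mutant for JAM3 ENSDARG00000061794 had 51.9 CPM, beside 42.7 to 44.0 CPM (0.856). The highest non-injured wild type fish for JAM3 ENSDARG00000114589 had 8.37 CPM, beside 3.67 to 4.33 CPM (0.859).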

How the results depend on the processing

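For the 8 genes and the 2 JAM3 IDs, 1131 of 1194 alternatives kept the direction and the side of the threshold; 10 lost a call, 8 gained one and 45 turned the direction of a result that was not called. The 6 rises after injury kept their direction in all, and lost 1 call (cdh15, given above). Depth limits mymk in non-injured fish, at 0 to 7 counts. The causes of the shifts were not tested.

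With 1 library left out in turn, the genes called were 2608 to 4205 for injury in wild type, 3524 to 4613 for injury in mutants, 172 to 625 between genotypes without injury, 106 to 289 between genotypes with injury, and 5 to 13 for the interaction, beside 3927, 4496, 467, 244 and 10. Counts moved by over 1.5 times without injured wild type replicate 2 for injury in wild type; without non-injured wild type replicate 3 or non-injured mutant replicates 2 or 3 between non-injured genotypes; without injured wild type replicates 1, 2 or 3 or injured mutant replicates 2, 3 or 4 between injured genotypes; and for the interaction without non-injured wild type replicates 3 or 4, injured wild type replicates 2, 3 or 4, non-injured mutant replicates 1, 2 or 3 or injured mutant replicate 1. Of the 8 genes, 5 to 6, 6 to 6, 0 to 1, 1 to 2 and 0 to 0 were called. DESeq2 called 1110 and 710 genes between genotypes without and with injury, 4 of the 8 genes with injury, and 62 interactions. Limma-voom called 284 genes between non-injured genotypes and 5 interactions. Fitting only the groups compared gave 2565 genes for injury in wild type, 130 between non-injured genotypes (0 of the 8) and 386 between injured ones. The epidermis covariate gave 2896 genes for injury in mutants, 157 between non-injured genotypes (0 of the 8; jam2a 0.67, adjusted p = 0.067) and 4 interactions. Library size alone gave 6 interactions, and splits of 3673 higher to 537 lower (main 1956 to 1971) and 3108 to 779 (2306 to 2190) after injury, and of 347 to 76 (228 to 239) and 154 to 54 (137 to 107) between genotypes. The replicate block gave 4 interactions and changed no call of the 8 genes; its other gene counts were 3653, 4274, 383 and 164.

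Directions turned as follows, all uncalled. With library size alone, JAM3 ENSDARG00000114589 after injury in wild type was 0.18, JAM3 ENSDARG00000061794 after injury in mutants 0.14 and between non-injured genotypes 0.15, kirrel3l after injury in mutants 0.27, megf10 between non-injured genotypes 0.0095, and the jam2a interaction -0.0788. With limma-voom, kirrel3l after injury in mutants was 0.011, the mymk interaction 0.36 and the jam2a interaction -0.0074. Fitted to the groups compared, kirrel3l after injury in mutants was 0.0179; with the replicate block the jam2a interaction was -0.0107; with the epidermis covariate JAM3 ENSDARG00000061794 after injury in mutants was 0.0354. Over single libraries left out, jam2a ranged from -0.0484 to 0.0639 after injury in wild type, -0.0549 to 0.13 in mutants and -0.0677 to 0.12 for the interaction. The mymk interaction ranged from -1.27 to 0.76 and kirrel3l after injury in mutants from -0.14 to 0.14. JAM3 ENSDARG00000114589 ranged from -0.24 to 0.22 after injury in wild type and -0.44 to 0.0415 between non-injured genotypes, and JAM3 ENSDARG00000061794 from -0.22 to 0.12 there. Between non-injured genotypes mymx ranged from -0.0326 to 0.28 and cdh2 from -0.10 to 0.22, and between injured genotypes met from -0.14 to 0.18.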

Other observations

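The 28 within-fish ratios of the 8 genes were formed after their values had been seen. Of these, 10 separated injured mutants from injured wild type fish without overlap. The pairs share genes and are not independent. Apart from mymx over cdh2, the numerators were genes whose injured levels separated the genotypes on their own, so the count is no separate support. None passed adjustment over the 28 (lowest adjusted exact permutation p = 0.081, computed from p rounded to 0.029). All 10 stood at exact permutation p = 0.029, the smallest that 4 against 4 allows. That fixed the adjusted value, which therefore says nothing of the size of the differences. In 5 of the 10 pairs cdh2 was the denominator: mymk over cdh2 differed by 1.49 on the log2 scale, cdh15 over cdh2 by 1.18, jam2a over cdh2 by 1.02, mymx over cdh2 by 0.97 and megf10 over cdh2 by 0.83. The others of the 10 had kirrel3l as denominator (under mymk, jam2a and cdh15) or met (under mymk and cdh15). Among non-injured fish, jam2a and cdh15 over megf10 or met also reached exact permutation p = 0.029 (adjusted 0.2). How often pairs of other genes separate in this way was not counted. The pair of fusogens, mymk over mymx, differed by 0.52 between the injured genotypes (exact permutation p = 0.23), and the groups overlapped. This was not particular to the fusogens. The ratio of mymk to cdh15 differed by 0.31, to jam2a by 0.48 and to megf10 by 0.66, all with overlap. Of the nerve and Schwann cell markers, 3 of 16 rose and 6 fell after injury in wild type and 2 rose and 9 fell in mutants. Of all 16514 genes tested 1956 rose and 1971 fell in wild type, and 2306 rose and 2190 fell in mutants.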
